A study of Homo sapiens with 6 samples.

Results

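BAF complexes are chromatin remodelers that use the energy of ATP to slide or evict nucleosomes, and 10 genes for their subunits were followed here in dried and fresh human cells. The members were ARID1A, ARID1B, ARID2, SMARCA4, SMARCB1, SMARCC1, SMARCC2, SMARCD1, SMARCE1 and GLTSCR1, the last being the older symbol of BICRA. They were taken as a list of names out of 23284 gene symbols in the expression tables, and each name was found once. All 10 passed the filter for low values, a mean above 1 FPKM in at least 1 group, which left 11134 genes for testing. GLTSCR1 passed through the controls alone, with a mean of 2.40 FPKM there and of 0.966 FPKM in the lyophilized samples. The list was selected on earlier results of the same contrast between dried and fresh cells, so the members' values in that contrast are given as a description and carry no test.

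The samples came from GM12873, an established human B-lymphoblastoid line grown in suspension. Cells of each sample were washed in PBS. The control group (n = 3) went straight into trizol, and the lyophilized group (n = 3) was freeze-dried in 0.1 M trehalose, kept dry at room temperature for 2 weeks and then dissolved in trizol. Poly(A) RNA was sequenced as 75 bp single-end reads, and each lyophilized sample was labelled as the partner of 1 control sample, which gave pairs 1 to 3. Drying, the sugar and the storage were applied together to 1 group and cannot be told apart. No label says that the pairs came from separate cultures, so the p-values below measure the spread between these samples, which may be technical. In bulk RNA, fewer cells holding a transcript and less of that transcript per cell could not be told apart either.

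Levels are given in FPKM, fragments per kilobase of transcript scaled to the number of mapped reads, so that genes of different length can be compared. The FPKM tables hold no read counts, and the library totals in the study's supplement were not used here, so the number of reads behind a value was not computed and no counting interval is given. All 10 markers of B-lymphoblastoid cells were above 1 FPKM in every sample, with a summed level of 1134 to 1505 in the controls and of 1076 to 1420 in the lyophilized samples. All 11 markers of T, myeloid, erythroid, hepatic, epithelial and fibroblast cells were at or below 1 FPKM in every sample, 3 of them at 0, with sums of 0.878 to 1.17 in the controls and of 1.02 to 1.17 in the lyophilized samples. Control 1 held the lowest of the 3 control values for 8 of the 10 members and for 55.5% of all tested genes, and lyophilized sample 1 held the lowest lyophilized value for 6 members and for 50.9% of the genes.

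A BAF complex is built on a core around an ATPase. SMARCA4, also called BRG1, is that ATPase and can be replaced by its paralogue SMARCA2. SMARCC1 and SMARCC2 form the scaffold, SMARCD1 joins the scaffold to the other subunits, SMARCB1 contacts the nucleosome, and SMARCE1 is a DNA-binding subunit with an HMG box. The larger subunits set the type of complex, with ARID1A or ARID1B in canonical BAF, ARID2 in PBAF, and GLTSCR1 or its paralogue GLTSCR1L in the non-canonical form, which lacks SMARCB1 and SMARCE1. Several of these genes, ARID1A and SMARCA4 among them, are recurrently mutated in cancers, lymphomas of B cells included.

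The subunits called long were ARID1A, ARID1B, ARID2, SMARCA4 and GLTSCR1, and those called core were SMARCB1, SMARCC1, SMARCC2, SMARCD1 and SMARCE1. The longest coding transcripts of the long subunits ran from 5739 nt for GLTSCR1 to 10813 nt for ARID1B, and those of the core subunits from 3283 nt for SMARCD1 to 6354 nt for SMARCC1. The median over 10505 expressed protein-coding genes was 3470 nt. The GC content of the same transcripts was 68.6% for GLTSCR1, above 99.5% of those genes, 61.0% for SMARCA4, 57.5% for ARID1A and 53.7% for ARID1B, against a median of 48.1%. ARID2 went against the description of the long subunits as GC-rich, with a GC content of 40.5% over 8598 nt. Among the core subunits, GC content was 59.6% for SMARCB1, 53.4% for both SMARCC2 and SMARCD1, 46.5% for SMARCC1 and 44.5% for SMARCE1. By this measure 6 members lay above both medians, namely ARID1A, ARID1B, SMARCA4, GLTSCR1, SMARCB1 and SMARCC2. SMARCB1 did so only through a long annotated transcript of 5191 nt that runs past the end of the locus in the tables. Only 1700 nt of that transcript lay within the locus. With the canonical transcript of each member, as marked in the annotation, cut to its locus, 5 members were above both medians. The medians themselves were still those of full longest transcripts.

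The contrast in base composition is easiest to see in the coding sequence. For GLTSCR1, ARID1A, SMARCA4, ARID2 and SMARCE1, the 90 bases of coding sequence with the most G and C are printed. Only in-frame windows within 1 exon were searched. The sequences run 5′ to 3′ along the coding strand of the GENCODE transcripts on GRCh37. G and C are in capitals and A and T in lower case. These genes were chosen because they span the range of differences between the groups.
GLTSCR1 (chr19:48205529-48205618, plus strand, coding part of exon 15, 84.4% GC): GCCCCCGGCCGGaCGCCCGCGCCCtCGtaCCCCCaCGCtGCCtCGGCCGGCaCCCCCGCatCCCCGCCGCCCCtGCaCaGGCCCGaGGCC
ARID1A (chr1:27023549-27023638, plus strand, coding part of exon 1, 83.3% GC): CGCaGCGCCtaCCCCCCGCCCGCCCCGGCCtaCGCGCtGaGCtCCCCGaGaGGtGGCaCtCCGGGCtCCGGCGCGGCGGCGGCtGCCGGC
SMARCA4 (chr19:11098416-11098505, plus strand, coding part of exon 6, 83.3% GC): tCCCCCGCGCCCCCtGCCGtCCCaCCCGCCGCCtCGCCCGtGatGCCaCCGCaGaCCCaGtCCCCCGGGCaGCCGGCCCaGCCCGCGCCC
ARID2 (chr12:46123620-46123709, plus strand, coding part of exon 1, 63.3% GC): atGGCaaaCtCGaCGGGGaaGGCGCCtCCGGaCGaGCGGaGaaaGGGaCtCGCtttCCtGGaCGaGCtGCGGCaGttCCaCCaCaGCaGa
SMARCE1 (chr17:38787048-38787137, minus strand, coding part of exon 10, 61.1% GC): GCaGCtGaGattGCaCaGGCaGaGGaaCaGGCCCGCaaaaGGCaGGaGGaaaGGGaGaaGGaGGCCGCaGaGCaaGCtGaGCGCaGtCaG

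A window chosen by position rather than by composition gives a second view, so the central 90 bases follow for GLTSCR1 and for the long subunits ARID1A and ARID2, with capitals as above.
GLTSCR1 (chr19:48197384-48197473, plus strand, exon 8, 72.2% GC): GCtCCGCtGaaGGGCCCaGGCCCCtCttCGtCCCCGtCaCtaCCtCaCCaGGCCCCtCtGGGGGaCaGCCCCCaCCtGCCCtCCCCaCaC
ARID1A (chr1:27098993-27099082, plus strand, exon 13, 56.7% GC): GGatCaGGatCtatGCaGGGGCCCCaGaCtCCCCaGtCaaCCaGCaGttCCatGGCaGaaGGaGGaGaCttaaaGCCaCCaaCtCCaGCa
ARID2 (chr12:46244613-46244702, plus strand, exon 15, 47.8% GC): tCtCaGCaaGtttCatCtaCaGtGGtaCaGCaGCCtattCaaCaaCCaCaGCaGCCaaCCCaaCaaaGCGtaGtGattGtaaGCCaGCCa

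The share of G or C at the third base of a codon was 83.3% in GLTSCR1, 79.4% in SMARCA4, 76.1% in SMARCB1, 67.6% in ARID1B and 64.6% in ARID1A. It was lowest in ARID2, at 31.6%, and in SMARCC1, at 43.4%. A single extreme window did not follow the whole transcript, since the window richest in GC reached 94.4% in ARID1B and 78.9% in SMARCC1. The ARID1B window lies before the start of the deposited locus of that gene. The central windows did not follow the differences between the groups in every member either. Those of SMARCC2 and SMARCD1, both lower in lyophilized cells, had 43.3% and 41.1% GC. Those of SMARCB1, SMARCE1 and SMARCC1, whose groups overlapped, had 62.2%, 53.3% and 50%. The central windows of SMARCA4 and ARID1B both had 56.7%. No stretch of 75 bases, the read length, in the transcript of 9 members was found at another place in the genome. SMARCE1 was the exception, with 2.25% of its stretches found elsewhere. The transcript searched has 5150 nt, of which 2388 nt lie within the deposited locus. Where the repeated stretches fall was not checked, so how far they affect its values is not known.

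In the control cells the members covered a wide range of levels. SMARCB1 was the highest, at 65.9 ± 2.71 FPKM (SD, n = 3). SMARCC1 at 32.2 ± 5.57, SMARCA4 at 31.6 ± 4.34 and SMARCE1 at 30.5 ± 6.78 FPKM came next and overlapped with each other. SMARCD1 followed at 22.3 ± 0.638 FPKM, below the lowest value of SMARCE1. SMARCC2 at 17.5 ± 1.43 and ARID1A at 17.0 ± 2.14 FPKM overlapped, and ARID1B stood below them at 10.4 ± 1.21 FPKM. The members that mark the other 2 types of complex were the lowest of all 26 subunit genes that passed the filter, ARID2 at 2.68 ± 0.329 and GLTSCR1 at 2.40 ± 0.251 FPKM, and their ranges overlapped. The plot of control levels sets these members among the other subunits.

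**Figure D1:**
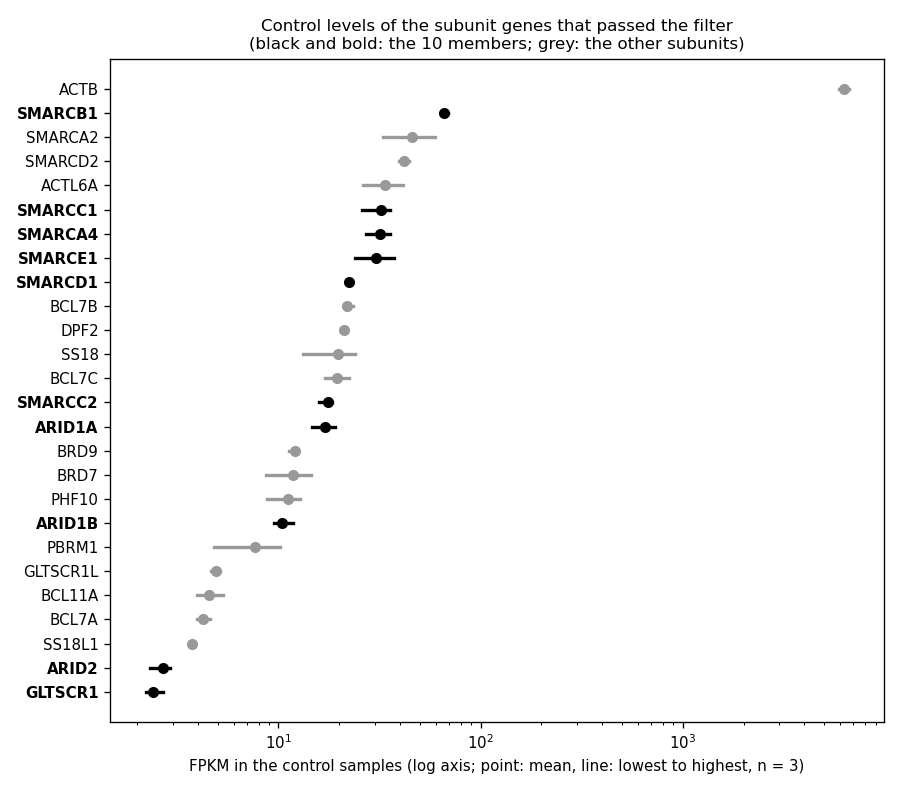
Control levels in FPKM, on a log axis, of the 26 BAF subunit genes that passed the filter, with the mean as a point and the range of the 3 control samples as a line. ACTB lies far above all others at 6312 FPKM, SMARCB1 is the highest member at 65.9 FPKM, and ARID2 and GLTSCR1 are the lowest genes at 2.68 and 2.40 FPKM.

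GLTSCR1, the subunit specific to the non-canonical complex, differed most between the groups. Its level was 2.33, 2.20 and 2.68 FPKM in the 3 controls, in the order of the pairs, against 1.04, 0.892 and 0.969 FPKM in their lyophilized partners. Every lyophilized sample lay below every control, and it was lower by 55.3%, 59.4% and 63.9% within pairs 1 to 3. The mean of 0.966 ± 0.0737 FPKM in lyophilized cells was 2.49-fold lower than that of the controls, and the log2 difference in FPKM + 0.1 was −1.23 with a standard error of 0.17, within the lowest 0.225% of the 11134 genes. With a pseudocount of 1 the log2 difference was −0.79, because its levels are low.

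ARID1A, a DNA-binding subunit of canonical BAF, had 14.7, 17.2 and 19.0 FPKM in the controls and 8.77, 10.0 and 11.5 FPKM in the lyophilized samples. The groups did not overlap, and the level was lower by nearly the same share in every pair, at 40.4%, 41.8% and 39.3%. Its log2 difference was −0.74 (SE 0.15). ARID1B, its alternative in the complex, had 9.50, 9.99 and 11.8 FPKM in controls and 9.01, 8.62 and 10.6 FPKM in lyophilized samples. ARID1B was lower in all 3 pairs, but the groups overlapped and the log2 difference was −0.15 (SE 0.14).

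ARID2, the ARID subunit of PBAF, went in no common direction. It had 2.30, 2.86 and 2.89 FPKM in controls and 3.18, 2.54 and 3.44 FPKM in lyophilized samples. The lyophilized sample was the higher one in pairs 1 and 3 and the lower one in pair 2, and the log2 difference was 0.18 (SE 0.17).

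SMARCA4, the ATPase, had 27.1, 32.1 and 35.7 FPKM in controls and 20.1, 23.3 and 25.9 FPKM in lyophilized samples. The groups did not overlap and the level was 1.37-fold lower on average, and by 25.6%, 27.6% and 27.6% within the 3 pairs. The log2 difference was −0.45 (SE 0.15).

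In the scaffold, SMARCC1 and SMARCC2 differed in direction. SMARCC2 had 15.9, 18.2 and 18.5 FPKM in controls and 11.4, 14.2 and 15.1 FPKM in lyophilized samples, without overlap, and its log2 difference was −0.37 (SE 0.14). SMARCC1 had 25.8, 35.0 and 35.8 FPKM in controls and 30.6, 34.0 and 38.0 FPKM in lyophilized samples. Here the groups overlapped and the log2 difference was 0.10 (SE 0.16), which became −0.06 without control 1.

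SMARCD1, which bridges the scaffold to other subunits, was the most even within groups. It had 21.7, 22.3 and 22.9 FPKM in controls and 18.2, 18.5 and 18.4 FPKM in lyophilized samples, and its log2 difference was −0.28 (SE 0.10). The groups did not overlap, although the lyophilized samples were lower by only 16.0% to 19.7%. SMARCB1, the subunit lost in rhabdoid tumours, had 68.9, 65.1 and 63.7 FPKM in controls and 69.0, 65.2 and 61.5 FPKM in lyophilized samples. Its partners within pairs 1 and 2 were equal to within 0.147%, and the log2 difference was −0.02 (SE 0.10), with a sign that varied from −0.06 to 0.03 with the sample left out. SMARCE1 had 23.9, 37.5 and 30.0 FPKM in controls and 34.0, 37.8 and 36.7 FPKM in lyophilized samples. It was the only member whose lyophilized value was the higher one in each of the 3 pairs, by 42.1%, 0.892% and 22.4%, but control 2 lay above lyophilized samples 1 and 3, and its log2 difference was 0.27 (SE 0.17), which was 0.11 without control 1, 0.43 without control 2 and 0.15 without pair 1.

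**Figure D2:**
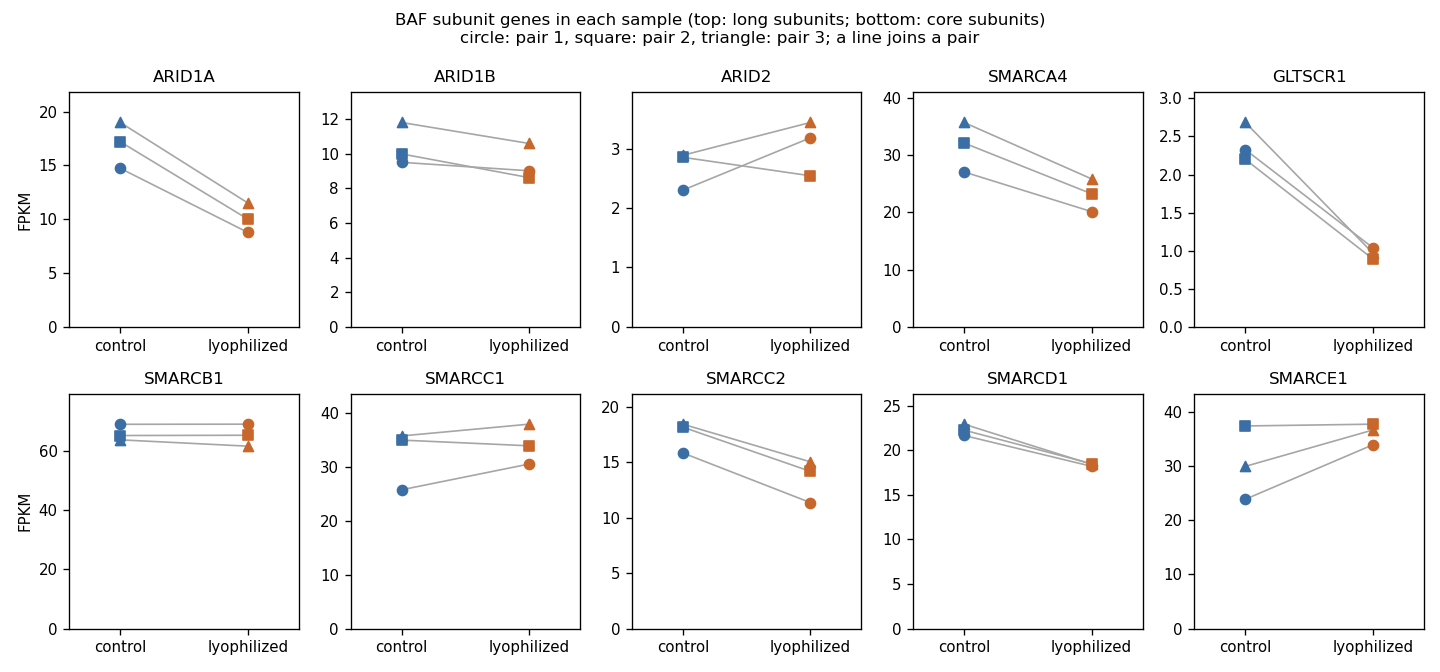
FPKM of each member in the 6 samples, with controls in blue, lyophilized samples in orange and a line joining each pair. The vertical axes start at 0 and differ between panels. The 5 members with no overlap between groups are ARID1A, SMARCA4, GLTSCR1, SMARCC2 and SMARCD1, each lower in the lyophilized cells, while the lines of SMARCB1 are nearly flat and none of SMARCE1 slopes down.

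Counts over the members have to be read beside the same counts over all genes, and they describe a list that this contrast chose. In limma with the condition only, 1 of the 10 members passed an adjusted p of 0.05 as lower, GLTSCR1, beside 0.557% of the 11134 genes, and no member passed as higher, beside 0.018%. That pass of GLTSCR1 was lost without any 1 of the 6 samples. With the pair number as a replicate block, 5 members passed as lower, beside 14.9% of the genes, and 1 as higher, SMARCE1, beside 15.9%. The 5 lower members were ARID1A, SMARCA4, SMARCC2, SMARCD1 and GLTSCR1. Every lyophilized sample lay below every control for the same 5 members, beside 12.6% of the genes, and above every control for 0 members, beside 9.66%. The lyophilized sample was the lower one in all 3 pairs for 6 members, beside 28.8%, and the higher one for 1 member, beside 33.4%. The median log2 difference was −0.21 over the members and 0.04 over all tested genes.

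The long subunits were then set against the core subunits within each sample. The mean log2 level of the 5 long subunits minus that of the 5 core subunits was −1.87, −1.97 and −1.75 in the controls and −2.26, −2.40 and −2.19 in their lyophilized partners. The gap was wider in the lyophilized sample of every pair, by −0.38, −0.43 and −0.44, with a mean of −0.42 ± 0.03 (SD over pairs, n = 3). Without ARID2, the long subunit poor in GC, the mean was −0.58 ± 0.04, and without GLTSCR1, the member with the largest difference, it was −0.23 ± 0.04. Leaving out any other single member gave means from −0.50 to −0.34, so GLTSCR1 alone accounted for much of the gap. Split by composition instead, the 6 members above both medians minus the other 4 gave −0.70, −0.39 and −0.59 in the 3 pairs, a mean of −0.56 ± 0.16. Within the core, SMARCB1 was rich in GC yet had a log2 difference of only −0.02. Within the long subunits, that of ARID1B was −0.15 (SE 0.14). Once GC content was corrected in the fit with the block, SMARCB1 was at 0.21 (SE 0.05) and ARID1B at −0.02 (SE 0.07).

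Across the members, a higher GC content went with a lower value in lyophilized cells. The Spearman correlation between the log2 difference and transcript GC content was −0.81 over the 10 members, which share the same 6 libraries and differ in depth and base composition. Over all 10505 expressed protein-coding genes it was −0.77, so the relation was not particular to the BAF subunits. Against transcript length the correlation was 0.28 over the members and 0.05 over all these genes, and against the control level it was 0.35 and −0.03. These correlations run across genes, which are not independent replicates.

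**Figure D3:**
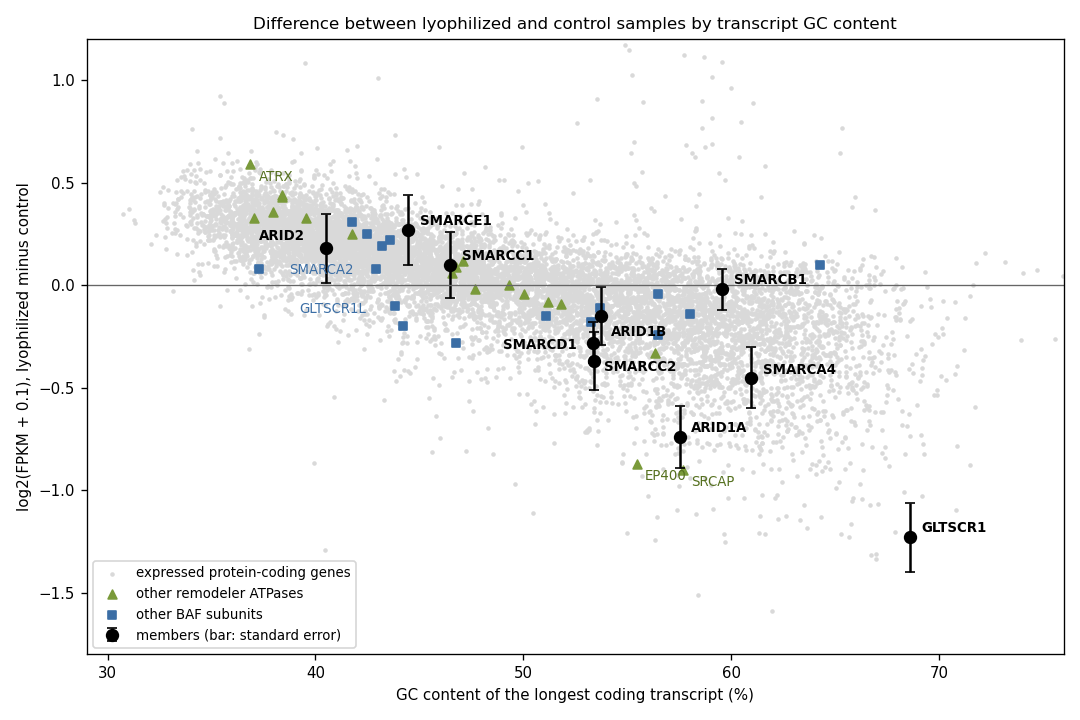
Log2 difference in FPKM + 0.1, lyophilized minus control, against the GC content of the longest coding transcript for expressed protein-coding genes (grey), other remodeler ATPases (green triangles), other BAF subunits (blue squares) and the 10 members (black, with standard errors), with a few grey points beyond the axes not shown. The grey cloud slopes downward with a Spearman correlation of −0.77, GLTSCR1 lies at its right edge at 68.6% GC and −1.23, and SMARCB1 sits near 0 at 59.6% GC.

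Removing the dependence on GC content in each sample with a loess curve, together with the replicate block, brought all members but SMARCB1 closer to 0. The log2 difference became −0.89 (SE 0.11) for GLTSCR1, −0.55 (SE 0.07) for ARID1A, −0.25 (SE 0.06) for SMARCC2, −0.20 (SE 0.06) for SMARCA4 and −0.15 (SE 0.06) for SMARCD1. SMARCB1 moved the other way, from −0.02 to 0.21 (SE 0.05). In that fit 4 members passed as lower, ARID1A, SMARCA4, SMARCC2 and GLTSCR1, beside 6.62% of the 10993 genes with a transcript, and 1 as higher, SMARCB1, beside 9.12%.

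When length was added to the curve, the differences of GLTSCR1, ARID1A and SMARCA4 became smaller again. GLTSCR1 was at −0.33 (SE 0.09), ARID1A at −0.24 (SE 0.06), SMARCA4 at 0.08 (SE 0.05) and ARID1B at 0.21 (SE 0.06), so that SMARCA4 and ARID1B changed sign, and ARID2 was at −0.03 (SE 0.09), as with GC content alone (SE 0.10). The gap between long and core subunits shrank from −0.42 to −0.35 with GC content alone and to −0.14 with GC content and length. In this last fit 1 member passed as lower, ARID1A, beside 3.97% of the genes, and 1 as higher, SMARCB1, beside 4.62%. The SMARCB1 value of 0.41 rests on the annotated transcript of 5191 nt and not on the 1700 nt of it within its locus. The SMARCE1 value of 0.20 likewise rests on 5796 nt, while its canonical transcript has 2388 nt within its locus.

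**Figure D4:**
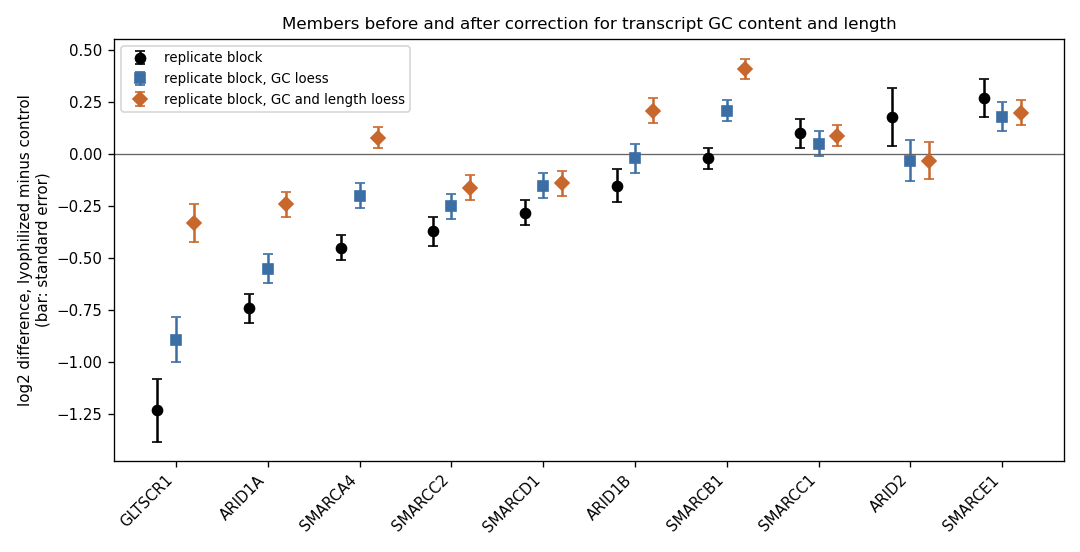
Log2 difference of each member, lyophilized minus control, in the fit with the replicate block (black circles) and after a loess correction for GC content (blue squares) or for GC content and length (orange diamonds), with standard errors as bars. GLTSCR1 moves from −1.23 to −0.89 and −0.33, ARID1A from −0.74 to −0.55 and −0.24, and SMARCE1 stays between 0.18 and 0.27.

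Several members have a paralogue that takes the same place in the complex, and the share of each in the summed FPKM of its pair of genes is a ratio within a sample that does not depend on scaling between samples. GLTSCR1 made up 32.9% ± 1.22 (SD, n = 3) of GLTSCR1 and GLTSCR1L in controls and 17.5% ± 1.10 in lyophilized samples, lower by 14.0, 14.1 and 18.1 percentage points within the pairs. GLTSCR1L, with a GC content of 43.9% against 68.6%, had a log2 difference of −0.10. ARID1A made up 61.9% ± 1.26 of ARID1A and ARID1B in controls and 51.7% ± 2.23 in lyophilized samples, and in lyophilized sample 1, at 49.3%, it was no longer the higher of the pair.

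SMARCA4 made up 41.4% ± 5.46 of the ATPase pair SMARCA4 and SMARCA2 in controls and 32.8% ± 2.24 in lyophilized samples. SMARCC2 made up 35.4% ± 2.30 of SMARCC1 and SMARCC2 in controls and 28.3% ± 1.18 in lyophilized samples. Within every pair both shares were lower after lyophilization, by 4.73 to 11.9 percentage points for SMARCA4 and by 4.70 to 11.0 for SMARCC2. The share of SMARCD1 in SMARCD1 and SMARCD2 was lower by 1.65 to 2.48 points, from 34.9% ± 0.744 to 32.8% ± 0.420. In 4 of these 5 pairs of genes the one richer in GC had the lower share in lyophilized cells, and in the last it was SMARCD1, at 53.4% against 58.0% for SMARCD2. Since 7 of the members enter these ratios, they are a description as well.

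**Figure D5:**
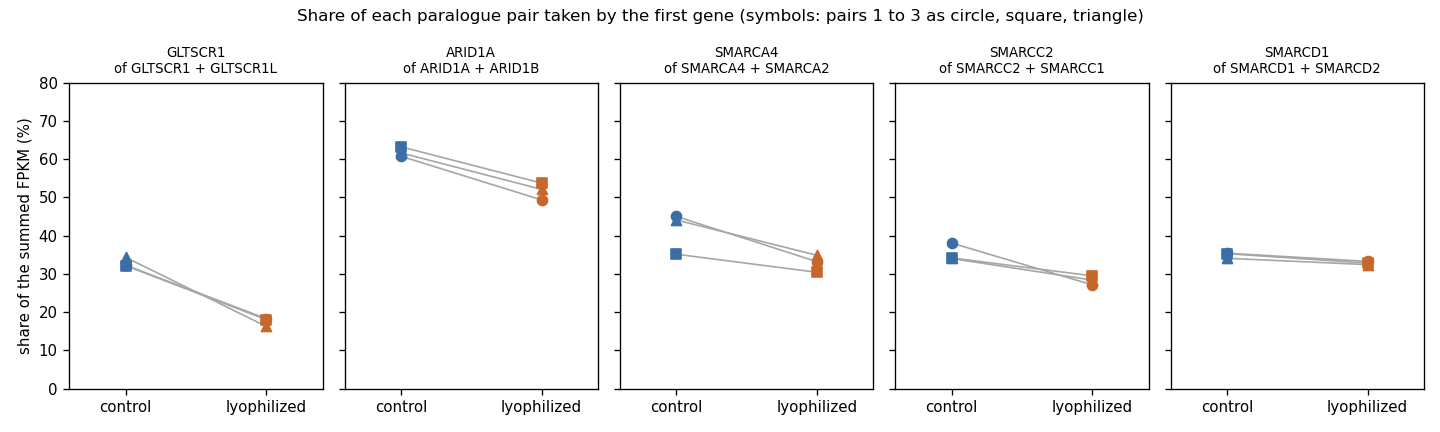
Share in percent of the summed FPKM taken by the first gene of 5 paralogue pairs, in controls (blue) and lyophilized samples (orange), with a line joining each sample pair. On average the share of GLTSCR1 goes from 32.9% to 17.5% and that of ARID1A from 61.9% to 51.7%, while that of SMARCD1 moves least, from 34.9% to 32.8%.

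The other subunit genes of BAF, PBAF and the non-canonical complex were not chosen for this contrast in the same way and can be tested, although they too were listed with earlier results known. Of 21 such genes 16 passed the filter. The 5 that did not were SMARCD3, ACTL6B, BCL11B, DPF1 and DPF3, subunits known from muscle, neurons or T cells. In limma with the condition only, 0 of the 16 passed an adjusted p of 0.05, and 0 had an unadjusted p under 0.05. Their log2 differences ran from −0.28 for SS18L1 to 0.31 for PBRM1, the bromodomain subunit of PBAF, with a median of −0.07.

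With the replicate block, ACTB was lower in lyophilized cells (log2 difference −0.24, adjusted p = 0.00153) and ACTL6A was higher (0.19, adjusted p = 0.0287), both actin-family subunits. ACTB differed in the same direction in all 3 pairs, as did ACTL6A, but 5.29% of the 75-base stretches of ACTB occur elsewhere in the genome. With the GC correction added neither passed, at −0.08 (adjusted p = 0.319) and 0.06 (adjusted p = 0.417). In that fit PHF10, a PBAF subunit, was lower (−0.21, adjusted p = 0.0323) and BCL7C was higher (0.41, adjusted p = 0.0123). Before the correction PHF10 was lower in 1 pair only and BCL7C in 1 pair only, and 2.44% of the stretches of PHF10 occur elsewhere. The corrected PHF10 value rests on a longest transcript of 4395 nt with a GC content of 37.3%. The canonical transcript of PHF10 has 2167 nt and 55.0%, and the part of it within the deposited locus has 1673 nt and 46.5%. The uncorrected log2 difference was 0.08. Over the 16 genes the Spearman correlation of the log2 difference with GC content was −0.54.

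The ATPases of other remodeler families gave a second comparison, and they too were listed with earlier results of these data known. Of 20 such genes 18 passed the filter, CHD5 and SMARCA1 being too low. In limma with the condition only, SRCAP and EP400 were lower in lyophilized cells, with log2 differences of −0.90 (SE 0.13) and −0.87 (SE 0.13) and an adjusted p = 0.0385 for each. SRCAP and EP400 are the ATPases that place the histone variant H2A.Z. SRCAP had 8.98, 9.97 and 10.6 FPKM in controls and 4.70, 5.31 and 5.71 FPKM in lyophilized samples, and EP400 had 6.34, 6.42 and 7.28 FPKM against 3.39, 3.57 and 3.87 FPKM. Neither overlapped between the groups, and both calls were lost when any 1 of the 6 samples was left out, with adjusted p-values from 0.0638 to 0.260.

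Both transcripts are long and rich in GC, at 11905 nt and 57.7% for SRCAP and 12289 nt and 55.5% for EP400, near ARID1A in composition. After the correction for GC content and length they still passed with the block, at −0.29 (adjusted p = 0.0206) and −0.39 (adjusted p = 0.00792). The next lowest, CHD3, an ATPase of NuRD,, had −0.33 (adjusted p = 0.265 with the condition only, 0.00731 with the block). The CHD3 call was lost with the GC correction, at −0.16 (adjusted p = 0.101), and the sign changed with GC content and length, at 0.07 (adjusted p = 0.385).

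At the other end stood ATRX (0.59, adjusted p = 0.145), CHD9 (0.44, adjusted p = 0.331) and SMARCA5, the ISWI ATPase (0.43, adjusted p = 0.356). With the replicate block all 3 passed as higher, with adjusted p-values of 0.00590, 0.0315 and 0.0136. Of the 18 genes 6 passed as higher and 3 as lower, beside 15.9% and 14.9% of all tested genes. With the GC correction added, 1 gene passed as higher, ATRX (0.30, adjusted p = 0.0339), beside 9.12% of all genes in that fit. As lower 2 passed, SRCAP and EP400, beside 6.62%. CHD9 was then at 0.17 (adjusted p = 0.239) and SMARCA5 at 0.16 (adjusted p = 0.186). ATRX is nearly as long as SRCAP, at 11165 nt, but has a GC content of 36.9%. Over the 18 genes the Spearman correlation of the log2 difference was −0.97 with GC content and −0.08 with length.

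A question the choice of members did not touch is how far the subunits differed between the 3 sample pairs. In a limma F test of the pair number, with the condition in the fit, 5 of the 10 members passed an adjusted p of 0.05, which is 50% beside 45.2% of all tested genes, a share close to that of the genes at large. The 5 were SMARCA4 (adjusted p = 0.00631), SMARCC1 (0.00916), ARID1A (0.0170), SMARCE1 (0.0312) and SMARCC2 (0.0326). Their mean FPKM differed between the highest and the lowest pair by 1.30-fold for SMARCA4, 1.31-fold for SMARCC1, 1.30-fold for ARID1A and SMARCE1 and 1.23-fold for SMARCC2. Pair 1 was the lowest for each of them. SMARCD1 was the steadiest, at 1.04-fold (adjusted p = 0.847), and GLTSCR1, which differed most between the groups, did not pass here (1.18-fold, adjusted p = 0.635). With each sample centred on its median, SMARCB1 was the only member to pass, beside 43.6% of all genes, and without control 1 it was SMARCA4, beside 36.8%. The members' calls therefore depended on the scaling between samples and on control 1, and the closeness of their share to that of all genes did not hold in these settings.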

How the data were processed

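Poly(A) RNA of 6 samples of GM12873 cells, 3 control and 3 lyophilized, was sequenced by the authors. They mapped the reads to hg19 (GRCh37) with TopHat2 2.0.7, kept reads with a single genomic position and deposited FPKM values computed with Cufflinks, 1 value for each of 24934 records per sample. The Cufflinks version and the gene annotation are not given in the sources used here. The library kit does not mark strand, so reads of overlapping or antisense genes could not be told apart. Summed FPKM was 468790 to 524744 per sample.

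From these values, 1 record was kept per symbol (the highest mean FPKM), 1624 small RNA symbols were removed, and a gene was tested where the mean of either group was above 1 FPKM. Log2(FPKM + 0.1) was fitted with limma 3.58.1 in R 4.3.3 (condition only, eBayes with trend, Benjamini-Hochberg over all genes tested, adjusted p of 0.05). The fit understates the change of genes at low levels. Other fits had the pair number as a block, alone or with a loess curve (span 0.3, degree 2) of the sample's values subtracted, fitted against the GC content of the transcript or jointly against its GC content and its length on the log2 scale. The fits were also run on simulated data, but the outcome is neither given nor used here. Transcripts were taken from GENCODE v44lift37 on GRCh37, and the locus starts of the tables were converted to count from 1. The rest was computed in Python 3.11.15 with pandas 2.3.3, numpy 2.4.6 and scipy 1.17.1, and figures were drawn with matplotlib 3.10.9.

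The pairing is given by the labels. Deviations from the group means of the paired samples correlated at 0.716, 0.603 and 0.476 across genes for pairs 1 to 3, and those of samples with different numbers at −0.28 on average. Such deviations cancel out within each group, so the negative mean largely follows from the positive values and is not separate evidence.

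The members and the lists were chosen with earlier results of these data known. The named genes were the 10 members, the 21 other subunits, the 3 lowest and 3 highest of the tested ATPases, and the 3 genes most correlated with GLTSCR1, SMARCA4 and SMARCE1 each. No protein sequences were used here.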

Additional observations from a re-analysis of the deposited data

How the results depend on the processing

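The members' log2 differences were recomputed 178 times under the alternatives, and 146 values stayed within the member's own spread between pairs. Some alternatives could not move a member's value, namely the filters, keeping every record, dropping the variance trend and the replicate block alone. Their values are among those that stayed, so the count overstates stability. With its wide spread of 0.31, ARID2 also stayed by this measure when it went from 0.18 to −0.03 with the GC correction. The median of the members, −0.21, was −0.09 with the replicate block and the GC correction and reversed to 0.02 with GC content and length, and it ran from −0.26 to −0.16 when 1 sample was left out. The long minus core value of −0.42 was −0.33 with a pseudocount of 1, −0.35 with the GC correction, −0.14 with GC content and length, and −0.47 to −0.36 with 1 sample left out. With a mean FPKM above 5 it could not be computed, because ARID2 and GLTSCR1 dropped out. Without GLTSCR1 the long minus core value was −0.23, an alternative chosen after seeing the data. The replicate block cannot change either value, since every pair is complete.

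The count of all genes past the threshold was 64 with the condition only. It was 0 with no filter (2069 at an unadjusted p under 0.05 in limma), 3423 in the paired fit with the replicate block, 1731 with the GC correction added, 944 with GC content and length, and 131 without pair 1, an alternative chosen after seeing the data. Leaving out any 1 sample gave 0 (885 to 2110 unadjusted). The count of members, 1, became 0 with no filter, with a mean FPKM above 5 and without any 1 sample, 2 with median centring, 2 without pair 1, 6 with the block, 5 with GC content and 2 with GC content and length. The adjusted p of GLTSCR1 was 0.0856 with no filter and 0.0732 to 0.253 without 1 sample. For the other subunits, 0 became 2 in each of the 3 fits with the block and stayed 0 without 1 sample. For the other ATPases, 2 became 0 with no filter, 9 with the block, and 0 without any 1 sample. For the pairs, 5036 genes became 2533 with no filter. The 5 members there became 2 with no filter, with quantile normalization (4583 genes) or without the variance trend (3782 genes), 1 with median centring (4859 genes), and 1 to 6 without 1 sample (4057 to 6393 genes), where 1 was reached without control 1 (4097 genes). The cause of these changes was not tested. The reads behind each value were not computed, and 3 samples per group limit every value.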

Other observations

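The genes outside the lists whose log2(FPKM + 0.1) ran most like 3 of the members over the 6 samples were ranked by Pearson's r, as a description of samples that include both groups. For GLTSCR1 they were ATXN2L (0.996), DNM2 (0.996) and UBE2O (0.995), with log2 differences between lyophilized and control samples of −0.80, −0.28 and −0.41. For SMARCA4 they were LRP2BP (0.999), SLC7A5 (0.999) and LPCAT4 (0.998), with differences of −0.31, −0.44 and −0.39. For SMARCE1 they were RDH14 (0.999), LRPPRC (0.998) and ING3 (0.997), with differences of 0.22, 0.33 and 0.29. With 6 samples and 11134 genes searched, an r this high says little about any 1 gene.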
